A study of Mus musculus with 5 samples.

Results

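The genes described here encode the proteasome: all rows whose name starts with Psm, a letter from a to g and a number, without the immunoproteasome subunits Psmb8 and Psmb9. The rule gave 42 of the 15597 genes in the series, and a gene with no row in a plate's file was taken as 0 reads. They were read in single mouse cells on 5 plates of 96 wells. Cells of 3 types were sorted, 1 cell per well: ES R1, a mouse embryonic stem (ES) cell line whose label names spheres derived from stem cells, on 3 plates; the mouse neuroblastoma line Neuro2A on 1; and mouse embryonic fibroblasts (MEF) on 1. No group carried a treatment or an engineered allele in the labels. Neuro2A and MEF were grown in the same serum medium and ES cells under a separate protocol, so cell type, medium and plate cannot be told apart. The labels do not say whether the 3 ES plates came from separate cultures, so every p-value below reflects plate-to-plate spread, which may be technical. They also name neither strain nor passage for the MEF.

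The proteasome is the protease that degrades most short-lived and misfolded proteins marked with ubiquitin. Its barrel-shaped core stacks rings of alpha subunits, which gate the entrance, on rings of beta subunits, of which some carry the peptide-cutting sites. A regulatory particle caps the barrel: a base with a ring of ATPases unfolds the substrate, and a lid removes its ubiquitin chain. Because subunits assemble in fixed numbers, their genes are often regulated together, among other ways by the transcription factor Nfe2l1, and the complex is present in practically all mammalian cells.

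Of the 42 rows, 7 encode the alpha ring, 7 the beta ring, 6 the base ATPases, 3 other base subunits, 8 the lid, 4 activators that bind the core in place of the regulatory particle, 1 an inhibitor and 3 chaperones of base assembly. Psma8 and Psmb10 are core subunits of restricted expression. Psmc3ip matches the rule by name but encodes a partner protein of Psmc3 that works in meiotic recombination, not a subunit. Psmb11 and Psmg1 to Psmg4 were not analysed here. Each ES plate held reads of 41 of the 42 genes, and each of the other plates reads of 40.

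Only wells holding 1000 or more gene reads entered, 431 of 480, where the stated design counts 436 cells. Gene reads per plate ranged from 277068 in ES replicate 2 to 11434036 in ES replicate 1. ES replicate 2 stood apart: repeats took 82.4% of its reads against 23.02% to 40.0% elsewhere, and 1 well held 25.9% of its kept gene reads. The same 96 barcodes served all 5 plates. Genes largely specific to MEF had a median of 10.8% of their MEF read number in ES replicate 3, and genes largely specific to Neuro2A 9.45% of theirs in MEF. All 10 ES markers had reads in each ES plate (0.688% to 1.03% of gene reads), against 1 of 10 in Neuro2A and 3 of 10 in MEF. Fibroblast markers took 3.48% of gene reads in MEF and 0.186% to 0.564% on ES plates, highest in ES replicate 3. Neuroblastoma markers took 0.184% in Neuro2A and at most 0.0198% elsewhere.

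Promoters of 35 of the 42 genes were listed by RefSeq (GRCm38.p6), as 38 windows of the 250 bases before the start site. Psma8, Psmb1, Psmb2, Psmb7, Psmc3, Psmd3 and Psmd7 were not listed. The 4 windows shown belong to the gene with the highest level and to the listed subunits whose ES plates all lay above Neuro2A or MEF by at least 3-fold in the mean, leaving out Psmd9, whose ES mean was carried by 1 plate. Capitals mark CCGGAAG, the core bound by ETS family factors, and in Psmd4 also a CCAAT box that lies on the other strand.
Psme4: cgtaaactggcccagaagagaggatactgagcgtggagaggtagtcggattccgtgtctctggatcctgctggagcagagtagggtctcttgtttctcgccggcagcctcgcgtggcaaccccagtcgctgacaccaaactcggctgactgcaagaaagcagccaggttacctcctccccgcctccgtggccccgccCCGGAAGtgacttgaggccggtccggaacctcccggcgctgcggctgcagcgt
Psmd4: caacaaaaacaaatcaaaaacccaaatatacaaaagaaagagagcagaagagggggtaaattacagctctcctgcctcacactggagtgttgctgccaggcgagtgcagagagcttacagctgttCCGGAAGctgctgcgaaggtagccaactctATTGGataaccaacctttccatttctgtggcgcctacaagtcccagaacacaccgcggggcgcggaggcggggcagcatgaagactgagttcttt
Psmd6: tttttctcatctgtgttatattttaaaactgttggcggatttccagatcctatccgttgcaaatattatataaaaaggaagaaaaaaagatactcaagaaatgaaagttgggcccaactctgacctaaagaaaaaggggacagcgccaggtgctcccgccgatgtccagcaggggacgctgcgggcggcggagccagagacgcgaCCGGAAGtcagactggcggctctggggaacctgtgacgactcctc
Psmc4: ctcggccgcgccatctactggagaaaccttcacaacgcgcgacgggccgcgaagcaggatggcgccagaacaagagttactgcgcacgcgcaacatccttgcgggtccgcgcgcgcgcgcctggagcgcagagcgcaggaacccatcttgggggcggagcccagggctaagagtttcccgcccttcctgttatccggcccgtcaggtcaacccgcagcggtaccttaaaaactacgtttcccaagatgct
These windows lie at chr11:30771525-30771774 on the plus strand for Psme4, and on the minus strand at chr3:95042615-95042864 for Psmd4, chr14:14120946-14121195 for Psmd6 and chr7:28050093-28050342 for Psmc4. All are printed 5′ to 3′ along the gene's strand. A gene was counted for a motif when any of its windows held it. On either strand, CCGGAAG stood in 12 of the 35 genes (34.3%) and in 7.83% of 27025 genes. This motif was kept for display after its counts were seen. The antioxidant response core to which Nfe2l1 and Nfe2l2 bind was searched as TGACNNNGC, found in 5 of them (11.5% of all genes). Searched as TGAGNNNGC, it was found in 9 (16.3% of all genes). Psmc6 and Psmd12 held both forms, so 12 genes held either, against 25.7% of all genes. CCAAT stood in 13 genes (37.1%) and in 37.5% of all genes. The median GC content was 57.4% in the windows of these genes and 52.4% over all windows. The Psmc4 window held none of the 4 motifs.

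Together the 42 genes took 0.800%, 0.638% and 0.860% of gene reads for ES replicates 1, 2 and 3, 0.687% for Neuro2A and 0.594% for MEF. The ES mean was 0.766% ± 0.115 (SD, n = 3). Neuro2A lay inside the range of the ES plates, and MEF lay below all of them. Both positions depend on ES replicate 2, which set the lower end of that range. In that plate 1 well held 25.9% of the kept gene reads, and without it the ES mean was 0.795%. With only wells of at least 5000 gene reads, of which ES replicate 2 had 10, the ES mean was 0.725%. Exact 95% binomial intervals ran from 0.608% to 0.669% in ES replicate 2, from 0.678% to 0.697% in Neuro2A and from 0.586% to 0.603% in MEF. They cover counting error only, since the reads carry no molecular identifiers. In plate sums, fewer cells with a transcript and less transcript per cell cannot be told apart. For comparison, the 8 genes of the chaperonin CCT, another large complex of fixed composition, took 0.370% ± 0.060 (SD, n = 3) in ES, 0.363% in Neuro2A and 0.187% in MEF.

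**Figure D1:**
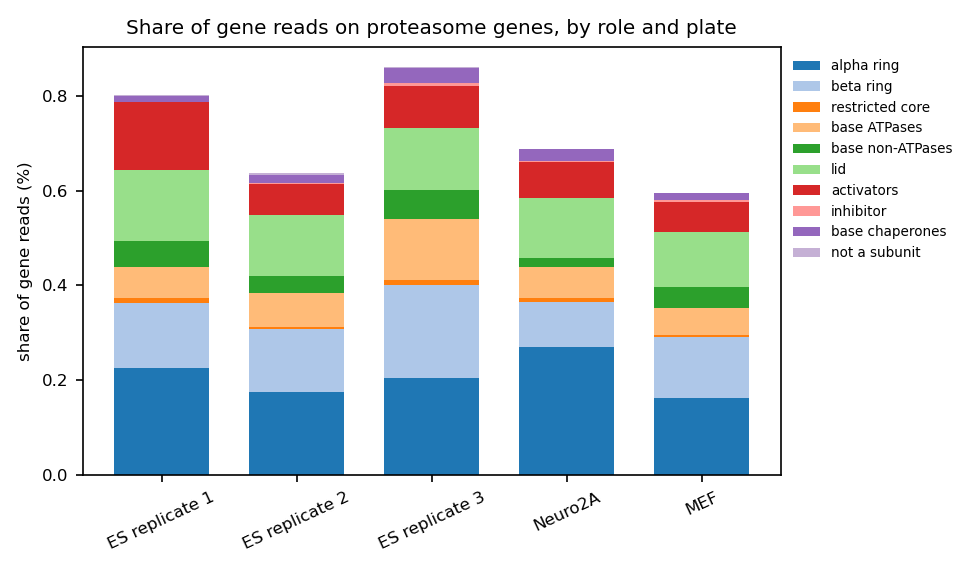
Share of all gene reads (percent, vertical axis) taken by the 42 genes in each of the 5 plates, stacked by role. The alpha ring (lowest block) was tallest in Neuro2A at 0.271%, and the whole stack was shortest in MEF at 0.594%, both without TMM factors.

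The sum of the core genes in Neuro2A lay within the ES range, while its alpha and beta ring shares lay outside it, on opposite sides. Alpha ring genes took 0.226%, 0.175% and 0.204% of gene reads on ES plates, 0.271% in Neuro2A and 0.162% in MEF. Beta ring genes took 0.138%, 0.133% and 0.197% on ES plates, 0.0945% in Neuro2A and 0.129% in MEF. Neuro2A therefore lay above every ES plate for the alpha ring and below every ES plate for the beta ring in these unscaled sums. Gene by gene, with TMM factors, 2 of the 7 beta ring genes (Psmb2 and Psmb4) had every ES plate above Neuro2A. The background over all genes tested was 28.8%. For the alpha ring 5 of the 7 had every ES plate below Neuro2A, against 28.1%. The sum of both rings was 0.357% ± 0.047 in ES (SD, n = 3), 0.365% in Neuro2A and 0.291% in MEF. The exact 95% intervals in Neuro2A were 0.265% to 0.277% for the alpha ring and 0.0911% to 0.0979% for the beta ring.

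The other blocks varied to different degrees. Lid genes took 0.149%, 0.130% and 0.132% on ES plates, 0.126% in Neuro2A and 0.115% in MEF, the narrowest spread of the large groups. Base ATPases took 0.0671%, 0.0709% and 0.128% in ES, 0.0651% in Neuro2A and 0.0561% in MEF, with ES replicate 3 standing above the other plates. The base subunits that are no ATPases (Psmd1, Psmd2 and Psmd4) took 0.0546%, 0.0354% and 0.0622% in ES, 0.0192% in Neuro2A and 0.0445% in MEF, so Neuro2A lay below every ES plate. Activator genes took 0.143% in ES replicate 1 and 0.0644% to 0.0869% in the other 4 plates.

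Levels of single genes are given below as CPM, the usual count scaled to equal library size, here over gene reads and with TMM factors, each plate summed over its kept wells. The barcode sits at the 5′ end of the cDNA, so levels were not divided by gene length, and whether the 5′ ends of different genes were captured equally was not tested. With edgeR's quasi-likelihood test and Benjamini-Hochberg adjustment over 12271 genes, 0 of the 41 tested members were higher and 0 lower in ES than in MEF, and likewise against Neuro2A, at an adjusted p under 0.05. The background was 0.0% of all genes in both directions of both contrasts. At an unadjusted p under 0.05, 1 member (Psmc4) was higher in ES than in MEF, against 4.21% of all genes, and 0 were lower, against 4.17%. In the contrast with Neuro2A 1 member (Psmb2) was higher, against 8.38% of all genes, and 0 were lower, against 4.05%. DESeq2 called 0 members against MEF (background 3.22% higher and 0.701% lower) and 1, Psmb2, as higher in ES than in Neuro2A (background 8.78% higher and 1.33% lower). Limma-voom called 0 in both contrasts (background 0.00815% higher and 4.0% lower against MEF, 0.0% each way against Neuro2A). The fit had 2 residual degrees of freedom and a biological coefficient of variation of 122%. The SE printed with a log2 fold change is its absolute value divided by the square root of the test's F statistic. Each lone plate was assumed to vary like the ES plates.

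**Figure D2:**
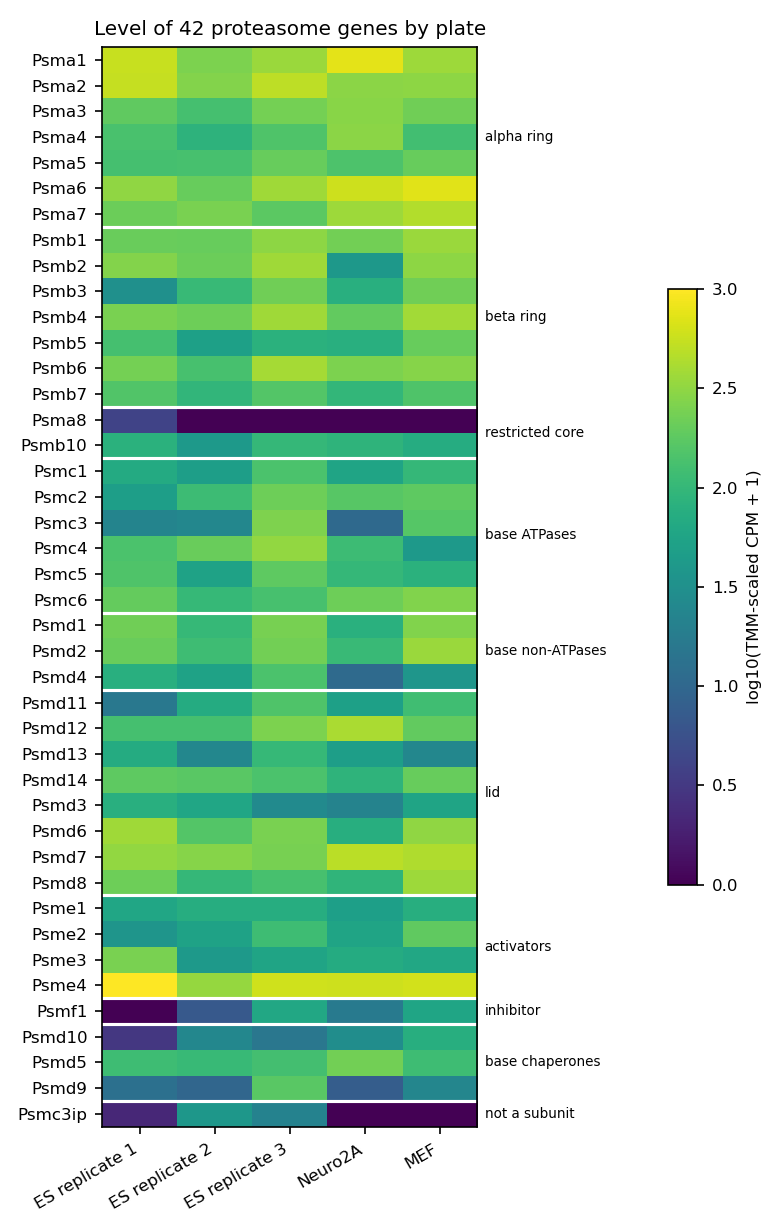
Level of each of the 42 genes in each plate, as log10 of TMM-scaled CPM + 1 (colour scale), with genes grouped by role. Psme4 is among the brightest rows in every plate, Psmb2 and Psmc3 are darker in Neuro2A than in any other plate, and Psma8 has reads in ES replicate 1 only.

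Without a test, the levels can be set side by side. Against Neuro2A, 14 members had every ES plate above (background 28.8%) and 10 had every ES plate below (28.1%). Against MEF, 3 members had every ES plate above (background 23.3%) and 16 every ES plate below (39.8%). That split turned with the scaling. With total gene reads in place of TMM factors, 20 members had every ES plate above MEF (background 31.6%) and 5 below (28.4%), which were Psma6, Psmd2, Psmd8, Psmd10 and Psme2. Against Neuro2A the same change gave 17 above (31.0%) and 9 below (25.5%). The median fitted log2 fold change of the members against MEF was -0.28, beside -0.08 over all genes tested, and 0.47 beside 0.67 with total gene reads. Without ES replicate 2 it was 0.46, beside 0.34 over all genes, and with carried-over reads subtracted it was 0.15, beside 0.60. Against Neuro2A the median was 0.49, beside 0.91 over all genes, and 0.06 beside 0.30 without ES replicate 3. With values under 3 reads set to 3 reads, and leaving out genes with both groups at or under that floor, the medians were -0.29 for members and -0.07 for all genes against MEF, and 0.47 and 0.71 against Neuro2A.

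**Figure D3:**
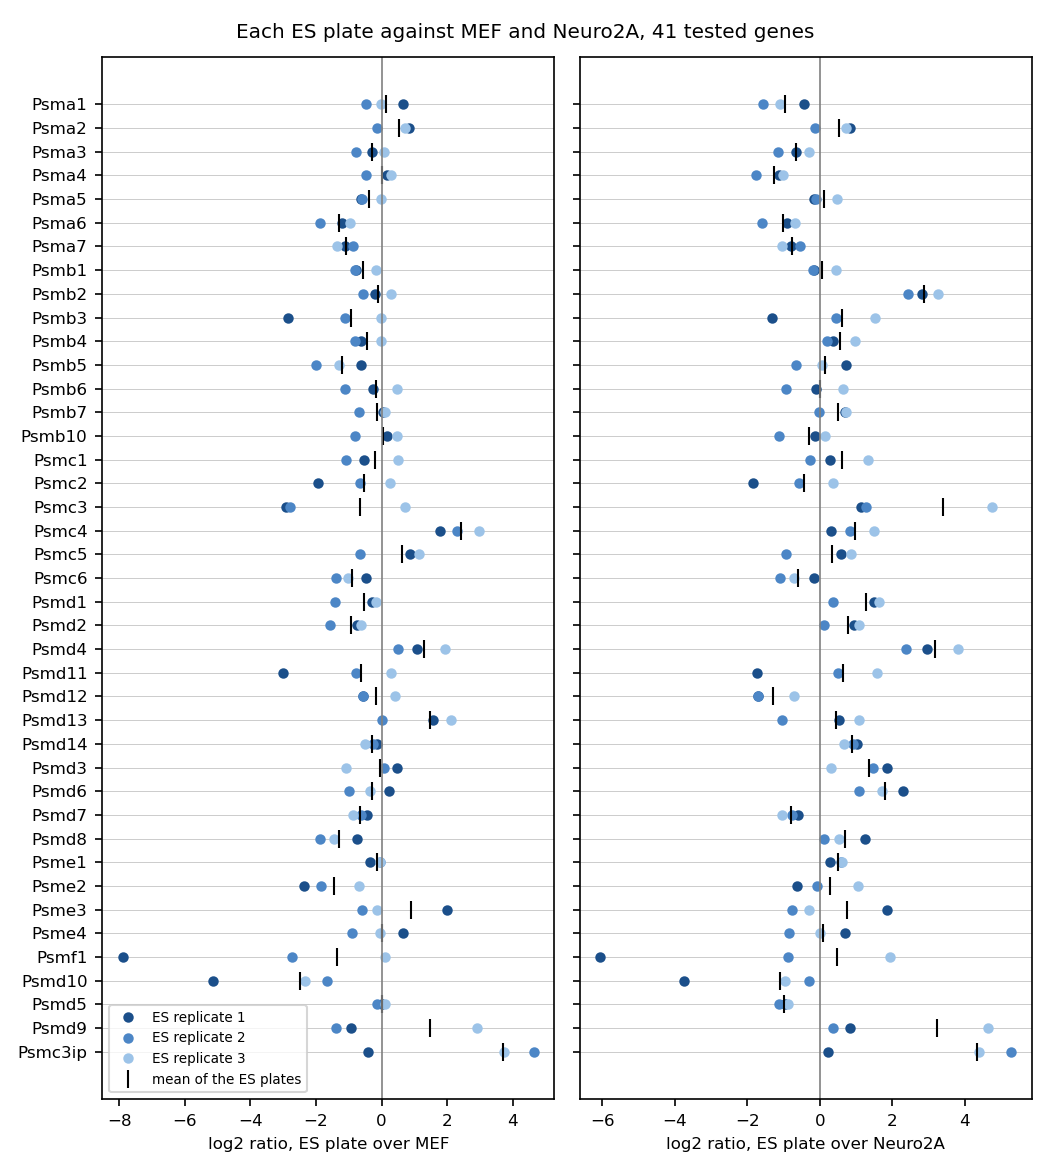
Log2 ratio of each ES plate over MEF (left) and over Neuro2A (right) for the 41 tested genes, from TMM-scaled CPM with values under 3 reads set to 3 reads. Points are the ES plates and ticks the log2 ratio of their mean. The alpha ring genes Psma1, Psma3, Psma4, Psma6 and Psma7 lie left of 0 on the right panel in all 3 plates, while Psmb2 lies between 2 and 4.

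Most alpha ring genes were read at a higher level in Neuro2A than on any ES plate. Compared with MEF, 3 of the 7 stood higher in Neuro2A and 4 lower. Psma1, Psma3, Psma4, Psma6 and Psma7, 5 of the 7, had every ES plate below Neuro2A (background 28.1%), and none had every ES plate above (28.8%). The count below was 5 as well with DESeq2 size factors and with total gene reads, where Psma2 had every ES plate above. Psma6 stood at 320, 197 and 375 CPM for ES replicates 1, 2 and 3, at 598 in Neuro2A and at 732 in MEF. All ES plates lay below both other cell types, and the log2 fold change was -1.30 ± 0.67 (SE) against MEF (edgeR adjusted p = 0.589) and -1.003 ± 0.67 against Neuro2A (edgeR adjusted p = 0.532). Psma7 followed the same order, with 211, 250 and 176 CPM in ES, 364 in Neuro2A and 453 in MEF. Its ES plates were lower than Neuro2A by 1.71-fold on average, and its log2 fold change against Neuro2A was -0.78 ± 0.65 (SE, edgeR adjusted p = 0.551).

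Psma1 was the alpha ring gene with the highest level in Neuro2A. It stood at 564, 255 and 354 CPM in ES, 760 in Neuro2A and 359 in MEF, so ES and MEF overlapped while Neuro2A lay above all. Its log2 fold change against Neuro2A was -0.96 ± 0.71 (SE, edgeR adjusted p = 0.540). Psma2 stood at 540, 279 and 505 CPM in ES, 303 in Neuro2A and 306 in MEF. Here ES replicates 1 and 3 were high and ES replicate 2 lay just under the other cell types. That position of ES replicate 2 held with TMM factors only. With DESeq2 size factors or total gene reads every ES plate lay above both other cell types. The remaining alpha genes, Psma3, Psma4 and Psma5, ranged from 87.1 to 296 CPM over all plates, and Psma4 was 2.40-fold higher in Neuro2A than the ES mean.

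Among beta ring genes, those of the active sites (Psmb5, Psmb6 and Psmb7) did not separate ES from Neuro2A: their ES plates overlapped it, and the ES mean was 1.11, 1.01 and 1.42 times the Neuro2A level. For Psmb7 the overlap held with TMM factors only, and with DESeq2 size factors or total gene reads every ES plate lay above. Psmb2, a beta subunit without a cutting site, had every ES plate above Neuro2A in all 3 scalings. It stood at 273, 212 and 377 CPM in ES, 38.9 in Neuro2A and 312 in MEF. All ES plates and MEF lay far above Neuro2A, the ES mean by 7.38-fold. The log2 fold change against Neuro2A was 2.88 ± 0.87 (SE) with an edgeR adjusted p of 0.339 and a DESeq2 adjusted p of 0.00961. The Neuro2A level rested on 121 reads in 29 of 86 wells, 20.7% of them in 1 well. Over the alternatives the log2 fold change ran from 2.63 to 3.31.

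Psmb4 and Psmb1, both structural beta subunits, had the highest mean level of the beta ring over the cell types. Psmb4 stood at 248, 218 and 376 CPM in ES, 191 in Neuro2A and 385 in MEF. Its ES plates lay between the other cell types, with a log2 fold change of 0.56 ± 0.73 (SE) over Neuro2A (edgeR adjusted p = 0.696). Psmb1 stood at 203, 200.3 and 312 CPM in ES, 227 in Neuro2A and 352 in MEF, and overlapped Neuro2A. The ES plates of both lay below MEF, with log2 fold changes of -0.46 and -0.56, but with total gene reads these became 0.28 and 0.18. Psmb3 varied widely among ES plates, with 30.9, 105 and 222 CPM, beside 77.3 in Neuro2A and 225 in MEF.

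Of the core subunits with restricted expression, Psmb10, the inducible counterpart of Psmb7 in the immunoproteasome, was read on all plates. It stood at 80.5, 40.6 and 97.8 CPM in ES, 88.8 in Neuro2A and 71.2 in MEF, and all 3 cell types overlapped. Its partners in the immunoproteasome were not part of the set: Psmb8 had 1 read in Neuro2A and 0 elsewhere, and Psmb9 was not analysed here. In MEF 48.2% of the Psmb10 reads came from 1 well. Psma8, the alpha subunit of the testis proteasome, had 37 reads in ES replicate 1, 73.0% of them from 1 well, and 0 in the other plates, and did not pass the filter on low counts.

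The base ATPases unfold the substrate and open the gate of the core. Psmc4 had the widest gap between ES and MEF among them. It stood at 141, 203 and 321 CPM in ES, 113 in Neuro2A and 41.4 in MEF. Every ES plate lay above both other cell types, with the ES mean 5.35-fold above MEF and 1.96-fold above Neuro2A. The log2 fold change over MEF was 2.42 ± 0.95 (SE, edgeR adjusted p = 0.583), and it ran from 1.61 to 3.65 over the alternatives. The MEF value rested on 82 reads in 22 of 92 wells.

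Psmc3 stood at 21.4, 23.2 and 262 CPM in ES, 9.66 in Neuro2A and 162 in MEF. ES replicate 3 carried the ES mean, 10.6-fold above Neuro2A, while the other ES plates lay below MEF. In Neuro2A 29 of its 30 reads came from 1 well. The log2 fold change over Neuro2A was 3.41 ± 2.04 (SE, edgeR adjusted p = 0.516), and it was 1.26 without ES replicate 3. Without ES replicate 1 it was 3.92 with an edgeR adjusted p of 0.0313, the 1 member called in that fit (background 8.64% higher and 3.59% lower). The same fit called 0 members against MEF (background 1.81% higher and 3.67% lower). The remaining ATPase genes, Psmc1, Psmc2, Psmc5 and Psmc6, ranged from 46.4 to 267 CPM. Psmc6 had every ES plate below both other cell types, and the other 3 overlapped both.

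The non-ATPase base subunits include the ubiquitin receptor Psmd4 and the scaffolds Psmd1 and Psmd2. All 3 had every ES plate above Neuro2A (background 28.8%). Psmd4 stood at 77.9, 52.3 and 139 CPM in ES, 9.98 in Neuro2A and 36.9 in MEF. Its ES plates lay above both other cell types, the ES mean 9.01-fold above Neuro2A and 2.44-fold above MEF. The log2 fold change over Neuro2A was 3.17 ± 1.36 (SE, edgeR adjusted p = 0.426), with 2.21 to 3.49 over the alternatives. The Neuro2A level came from 31 reads in 15 wells. Psmd1 and Psmd2 were 2.40-fold and 1.70-fold above Neuro2A in the ES mean, and the ES plates of both lay below MEF.

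Lid genes encode the part that strips ubiquitin from the substrate, with Psmd14 as the deubiquitinase and Psmd7 as its partner. Psmd7 had the highest level of the lid over the cell types: it stood at 321, 284 and 239 CPM in ES, 488 in Neuro2A and 441 in MEF. Its ES plates lay below both, with log2 fold changes of -0.65 ± 0.64 (SE) against MEF (edgeR adjusted p = 0.650) and -0.79 ± 0.63 against Neuro2A (edgeR adjusted p = 0.547). With total gene reads the first became 0.12. Psmd14 stood at 181, 168 and 141 CPM in ES, 88.5 in Neuro2A and 202 in MEF.

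Psmd6, a structural lid subunit, stood at 369, 157 and 245 CPM in ES, 74.4 in Neuro2A and 316 in MEF. ES and MEF overlapped and Neuro2A lay below all, the ES mean being 3.46-fold higher. The log2 fold change over Neuro2A was 1.79 ± 0.87 (SE, edgeR adjusted p = 0.465). In Neuro2A 37.7% of its 231 reads came from 1 well, and the log2 fold change ran from 1.45 to 2.13 over the alternatives. Psmd12 ran the other way, at 128, 128 and 253 CPM in ES against 416 in Neuro2A. The remaining lid genes, Psmd3, Psmd8, Psmd11 and Psmd13, ranged from 14.8 to 363 CPM.

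Psme4, the large activator that caps the core without ATP and is best known from the nucleus, had the highest mean level of all 42 genes. It stood at 978, 334 and 603 CPM in ES, 598 in Neuro2A and 629 in MEF. The ES plates spanned both other cell types, and the log2 fold changes were 0.02 ± 0.81 (SE) against MEF and 0.10 ± 0.82 against Neuro2A (edgeR adjusted p = 0.995 and 0.961). It was the highest of the 42 genes in every ES plate, while Psma1 led in Neuro2A and Psma6 in MEF. In Neuro2A 38.7% of its reads came from 1 well. Psme3, the nuclear member of the other activator family, stood at 247 CPM in ES replicate 1 and at 40.6 to 68.6 in the remaining 4 plates. Psme1 and Psme2, which form the interferon-inducible activator, stood at 36.0 to 115 CPM on ES plates, 48.3 and 55.4 in Neuro2A and 75.8 and 186 in MEF.

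Psmf1, an inhibitor of the core in vitro, was read unevenly. It had 0, 2 and 134 reads on the ES plates, 50 on the Neuro2A plate and 114 on the MEF plate, although ES replicate 1 was the deepest plate. In Neuro2A 80.0% of its reads came from 1 well and in MEF 54.4%. Among the base assembly chaperones, Psmd5 was close in ES and MEF, at 118, 105 and 125 CPM in ES and 116.2 in MEF, and 1.97-fold higher in Neuro2A than the ES mean. Psmd9 stood at 12.0, 8.71 and 169 CPM in ES, 6.76 in Neuro2A and 22.7 in MEF. ES replicate 3 alone was high, with 45.7% of its reads in 1 well, and the log2 fold change over Neuro2A of 3.23 ± 2.43 (SE, edgeR adjusted p = 0.543) was 0.67 without that plate.

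Psmd10 (gankyrin), a chaperone also known as an oncoprotein, had every ES plate below both other cell types, though with total gene reads below MEF only. It stood at 2.10, 23.2 and 14.6 CPM in ES, 28.3 in Neuro2A and 74.2 in MEF. One well held 77.6% of the MEF reads, and another held 92.3% of those in ES replicate 1. The log2 fold change against MEF was -2.53 ± 1.67 (SE, edgeR adjusted p = 0.611), and -1.01 without the highest well of each plate. Psmc3ip, the recombination factor, had 14, 13 and 44 reads in the ES plates and 0 in Neuro2A and MEF. The ES mean of 19.7 CPM was at least 12.98-fold higher than in MEF and at least 20.4-fold higher than in Neuro2A, taking 3 reads per library as the floor, but ES replicate 1, at 1.13 CPM, lay under the MEF floor of 1.52 CPM.

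In all, 3 members (Psmc4, Psmc3ip and Psmd10) had every ES plate on 1 side of MEF and a gap of at least 3-fold, against a background of 45.2% for either direction. Against Neuro2A there were 6 (Psmb2, Psmc3, Psmc3ip, Psmd4, Psmd6 and Psmd9), against 40.9% for either direction, and in all 6 ES was higher. A background for the higher direction alone was not counted at this gap. The fitted log2 fold change against Neuro2A was positive for 61.5% of all genes tested and for 29 of the 41 members tested. Among the 6 members, Psmd9 had 3 reads in ES replicate 2 and Psmc3 had 8, and Psmc3ip is not a subunit. Neuro2A and MEF, with 1 plate each, allow ratios only. Of the members tested, 5 were at least 2-fold higher in Neuro2A (background 28.3%) and 17 at least 2-fold lower (background 39.1%). Without barcodes ending in G 8 were higher, and with total gene reads 11 were lower. With TMM factors and all barcodes the 5 were Psma1, Psma4, Psmc4, Psmd12 and Psmd13. Psmd13 was 2.05-fold higher, and 54.7% of its 148 Neuro2A reads came from 1 well. The 17 included Psmb2, 8.00-fold higher in MEF, and Psmc3, 16.7-fold higher in MEF.

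The levels of the members differed widely within a plate although the subunits assemble in fixed numbers. Among the 14 genes of the alpha and beta rings, the highest level was 18.3, 5.65 and 6.28 times the lowest for ES replicates 1, 2 and 3, 19.5 times in Neuro2A and 6.02 times in MEF. The 8 CCT genes spanned 9.32-fold to 36.8-fold in the same plates. The order of the members can be compared between plates. Across the 39 members with a read in every plate, Spearman's rho was 0.592 to 0.747 between ES plates and 0.534 to 0.777 between plates of different cell types. Over the 6577 genes tested with a read in every plate it was 0.672 to 0.711 and 0.465 to 0.633. These are descriptions across genes of plates that differ in depth and share their chemistry. Over the ES plates the coefficient of variation of a member's level had a median of 41.4% for all 41 tested members. It was 45.8% for 2510 genes in the central part of the members' range of ES means, which leaves out its extremes.

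A further 21 tested genes work in or around the proteasome. They include assembly and subunit genes that the name rule does not match (Pomp, Shfm1 and Adrm1), deubiquitinases, ubiquitin genes and shuttle receptors. The p97 ATPase with its cofactors and the transcription factors Nfe2l1 and Nfe2l2 also belong to them. Of the 21, 0 passed edgeR's adjusted test in either contrast. At an unadjusted p under 0.05, 1 was lower in ES than in MEF (Ubqln1, background 4.17%). Against Neuro2A 2 were higher (Nploc4 and Nfe2l2, background 8.38%) and 1 lower (Ubqln2, background 4.05%). DESeq2 called the same 3 of the 21 against Neuro2A, 2 higher (background 8.78%) and 1 lower (1.33%). Nfe2l2, a stress-responsive activator of antioxidant and proteasome genes, stood at 254, 49.4 and 124 CPM in ES and 28.3 in MEF, and had 1 read in Neuro2A. Every ES plate lay above both. Nfe2l1, its relative that restores subunit expression when the proteasome is impaired, stood at 71.7, 95.8 and 35.7 CPM in ES, 69.8 in Neuro2A and 124 in MEF, and ES overlapped Neuro2A.

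Ubqln2, a shuttle that carries ubiquitinated proteins to the proteasome, stood at 141, 90.0 and 93.3 CPM in ES, 1065 in Neuro2A and 171 in MEF. Neuro2A lay far above all other plates, with a log2 fold change of -3.30 ± 0.63 for ES against it (SE, edgeR adjusted p = 0.210). Nploc4, a cofactor of p97, stood at 41.8, 55.2 and 132 CPM in ES, 2.58 in Neuro2A (8 reads) and 43.9 in MEF. Among the ubiquitin genes, Ubb stood at 782, 348 and 1277 CPM in ES, 216 in Neuro2A and 636 in MEF, with every ES plate above Neuro2A. Uchl5, a deubiquitinase of the base, stood at 252, 95.8 and 96.9 CPM in ES, 52.1 in Neuro2A and 22.2 in MEF, and every ES plate lay above both. Pomp, the chaperone of core assembly, stood at 226, 84.2 and 228 CPM in ES, 202 in Neuro2A and 374 in MEF, with every ES plate below MEF.

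In single cells the members were read sparsely. With each well thinned to 1000 gene reads, the median member had a read in 6.99%, 9.85% and 13.8% of wells for ES replicates 1, 2 and 3, in 6.40% for Neuro2A and 7.07% for MEF. Without thinning these medians were 41.9%, 22.7%, 53.7%, 34.3% and 37.5%, at median depths of 101130, 2520 and 17003 gene reads per well in ES, 26278 in Neuro2A and 12749 in MEF. A share near these levels counts wells with a read and not cells that express the gene. No cell type here lacks the proteasome, so no background share could be taken from these genes. ES markers, which Neuro2A and MEF should lack, took 3.17e-05% and 0.000171% of gene reads there.

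**Figure D4:**
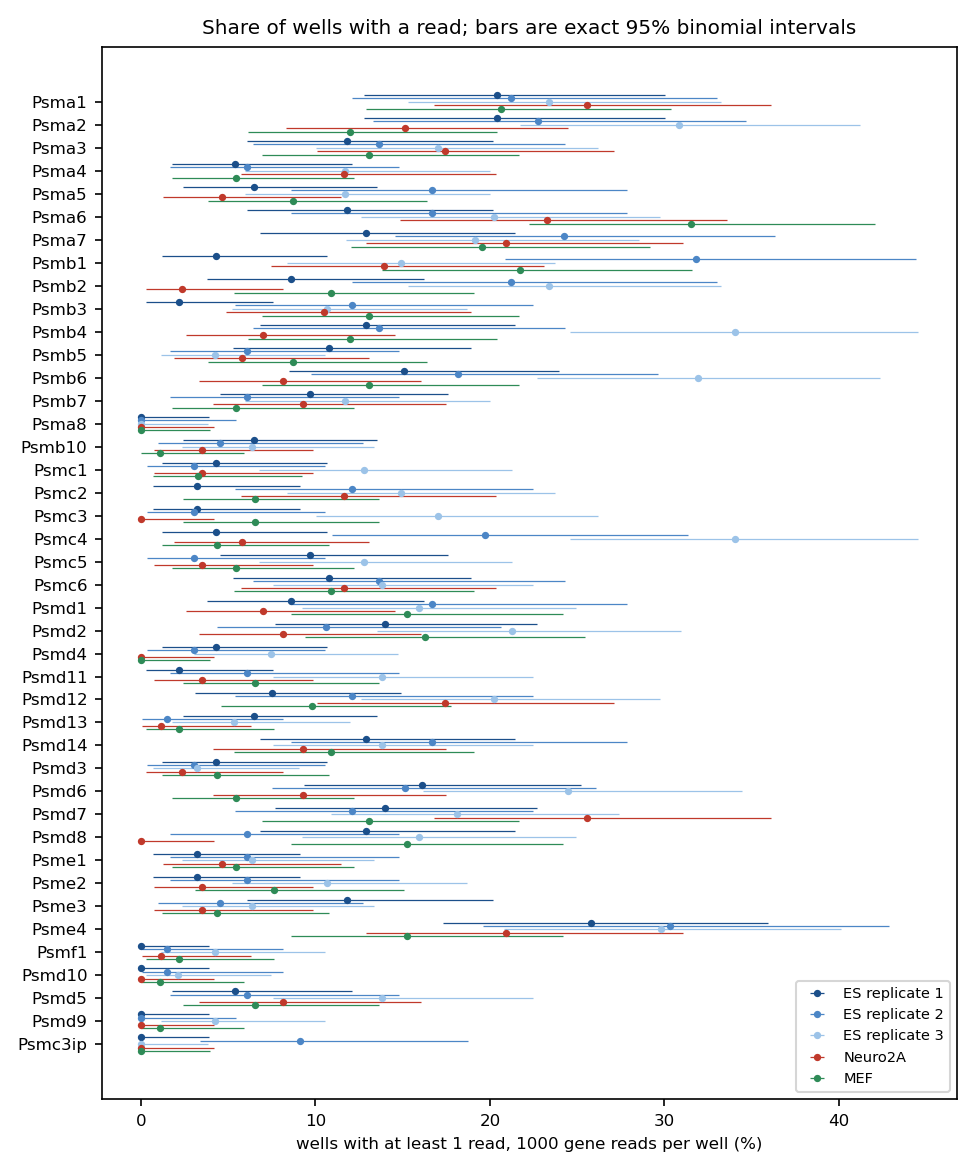
Share of wells with at least 1 read of each of the 42 genes after thinning to 1000 gene reads per well (percent, horizontal axis), by plate, with exact 95% binomial intervals. Psme4 was read in 15.2% to 30.3% of wells and Psmb2 in 2.33% of Neuro2A wells.

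Psme4 was again high, with a read in 25.8%, 30.3% and 29.8% of ES wells, 20.9% of Neuro2A wells and 15.2% of MEF wells. Psmb2 was read in 8.60%, 21.2% and 23.4% of ES wells, 2.33% of Neuro2A wells (exact 95% interval 0.283% to 8.15%) and 10.9% of MEF wells. Psmc4 was read in 4.30%, 19.7% and 34.0% of ES wells, 5.81% of Neuro2A wells and 4.35% of MEF wells, so ES replicate 1 lay at the level of the other cell types in this measure. Its level there was spread over fewer wells than in ES replicate 3. Psmd4 was read in 4.30%, 3.03% and 7.45% of ES wells, in 0 of 86 Neuro2A wells and in 0 of 92 MEF wells, which at this thinned depth allow shares of up to 3.49% and 3.26% (3 wells of the total). Without thinning it had a read in 15 of those Neuro2A wells and 16 of those MEF wells. Psmd8 had no read in 86 thinned Neuro2A wells, although 18 of them had one without thinning and its summed level was 91.4 CPM. Of those Neuro2A reads 55.6% came from 1 well.

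Single wells carried much of a gene's reads throughout. The well with the most reads of a member held a median of 24.4%, 25.0% and 10.4% of them on the ES plates, 28.1% on the Neuro2A plate and 26.2% on the MEF plate. It held over 50% for 5, 1 and 0 members on ES plates, 6 in Neuro2A and 5 in MEF. The deepest well was only 5.198%, 25.9% and 4.97% of gene reads on the ES plates, 6.45% on Neuro2A and 5.39% on MEF. ES replicate 3, the ES plate with the highest share of fibroblast markers and the one for which carry-over from MEF was estimated, was also the plate with the most even spread. The part of those reads in the spread over wells was not tested.

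Summed over the 42 genes, a thinned well held a median of 0.6%, 0.7% and 0.8% proteasome reads on ES plates, 0.6% in Neuro2A and 0.5% in MEF. A median of 3, 5 and 6 members had a read per well in ES, 3 in Neuro2A and 4 in MEF. No member was read in 7, 0 and 1 ES wells, 2 Neuro2A wells and 4 MEF wells. The variance of the share over wells was 5.14, 2.06 and 1.89 times the binomial variance in ES, 2.03 times in Neuro2A and 6.36 times in MEF. The MEF value rested on few wells: with wells of at least 5000 gene reads it was 2.99, and the highest share fell from 5.3% to 2.6%.

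**Figure D5:**
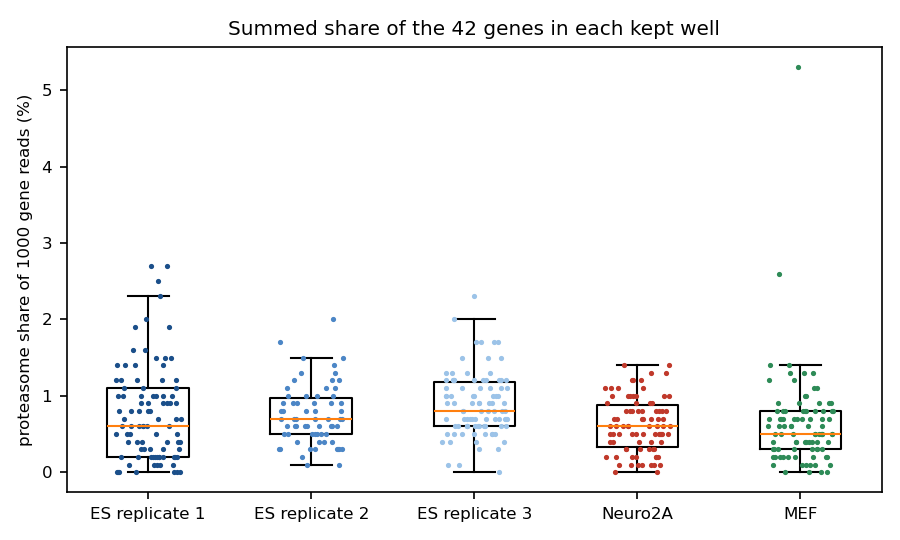
Summed share of the 42 genes among 1000 thinned gene reads (percent, vertical axis) for each kept well, with box plots (median, quartiles and whiskers to 1.5 times the interquartile range) by plate. Medians lie between 0.5% and 0.8%, and 1 MEF well stands at 5.3%.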

How the data were processed

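Single-cell cDNA from 5 plates was counted by the authors, who deposited raw read counts per gene and barcode, per the file headers and the readme, with 1 column per well. The submitters' processing notes name Bowtie. No version, build, annotation or strand setting is given in the sources used here. Features that are repeats (23.02% to 82.4% of reads) or mitochondrial genes were left out. Each file held 116 barcode columns, of which 20 were empty.

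Wells with at least 1000 gene reads were summed by plate, and the sums fitted with edgeR 4.0.16 (glmQLFit, glmQLFTest, TMM, filterByExpr, group means, Benjamini-Hochberg at 0.05). Alternatives used DESeq2 1.42.0, limma 3.58.1, other scalings, filters, wells and plates. Carried-over reads were estimated from genes with at least 100 CPM in the source plate and 10 times every plate but the target. The analysis was tested on simulated data. Other steps used python 3.11.15, pandas 2.3.3, numpy 2.4.6, scipy 1.17.1, matplotlib 3.10.9 and R 4.3.3.

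The members and gene lists were chosen with earlier results of these data known. Values in every plate were to be given for the 8 members of highest mean over the cell types and for members with every ES plate on 1 side of MEF or Neuro2A and at least 3-fold. Others given by plate (Psmb3, Psmb10, Psmd5, Psmd12, Psmd14, Psme3, Psmf1) and the related genes given by plate were chosen after their values were seen. Related genes not given by plate enter the counts only. One gene planned for that list was left out of it and is not reported here, and Paaf1 and Uba1 were not analysed here. Intervals are exact binomial at 95%. The 3-read floor is 0.242, 8.71 and 1.37 CPM on ES plates, 0.966 in Neuro2A and 1.52 in MEF.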

Additional observations from a re-analysis of the deposited data

How the results depend on the processing

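No paired analysis was possible because Neuro2A and MEF have 1 plate each and the labels number no replicates. The count of members called against MEF stayed 0 in both directions under every alternative run. Against Neuro2A the count higher in ES was 1 with DESeq2 (Psmb2) and 0 to 1 when each ES replicate was left out, the 1 being Psmc3 without ES replicate 1. Between Neuro2A and MEF, the members at least 2-fold higher numbered 8 without barcodes ending in G, and those at least 2-fold lower 11 with total gene reads. The summed share of gene reads moved past its counting interval in Neuro2A to 0.674% without barcodes ending in G, 0.570% with mitochondrial genes and 0.664% with every well weighted equally. In MEF it moved to 0.510% with mitochondrial genes, 0.581% with carried-over reads subtracted and 0.614% with wells weighted equally, the last added after the data were seen. The ES mean ran from 0.719% to 0.830% when each replicate was left out. Asking for at least 2 reads put the median share of wells at 2.15%, 1.52% and 3.19% on ES plates, 2.33% in Neuro2A and 2.17% in MEF, and thinning to 500 reads put it at 7.45% in ES replicate 3. Of 19 fold changes of named members, 3 reversed against MEF. Psmb1 became 0.18 (from -0.56, and -0.45 with the deepest ES replicate 2 well left out) with total gene reads, 0.000701 without the filter and 0.099 without ES replicate 2. Psmb4 became 0.28 (from -0.46, and -0.49 without that well) with total gene reads, 0.10 without the filter, 0.24 without ES replicate 2 and 0.24 without barcodes ending in G. Psmd7 became 0.12 with total gene reads. The other 296 of 304 alternative values kept their direction, 2 of them passing the threshold. The cause of these moves was not tested. Scaling by total gene reads drops the TMM factors of all plates, 0.676 in MEF, 0.985 in Neuro2A and 1.08, 1.35 and 1.03 in ES. Depth limits ES replicate 2 most, where 3 reads equal 8.71 CPM.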
